A study of Mus musculus with 6 samples.

Results

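The tumor suppressor p53 (gene Trp53) and 9 genes tied to it, its inhibitors Mdm2 and Mdm4 and its targets Bax, Bbc3, Pmaip1, Ccng1, Sesn1, Gadd45a and Trp53inp1, were described in Ink4a/Arf-/- mouse astrocytes with and without JAG1 overexpression. The genes were chosen by name as textbook members of the pathway, with earlier results of these data known. All 10 were found among the 23282 gene rows, whose symbols are in capitals (TRP53, MDM2, MDM4, BAX, BBC3, PMAIP1, CCNG1, SESN1, GADD45A and TRP53INP1). RNA was sequenced from a brain-derived astrocyte line, labelled Ink4a -/- in every library. The control libraries (n = 3) came from cells transfected with pcDNA3.1-puro and the JAG1-overexpressing libraries (n = 3) from cells transfected with pcDNA3.1-JAG1-puro. The control libraries also carry the genotype label WT, which was read as without added JAG1, since the same labels name the Ink4a -/- line. No age, sex or time after transfection was given, and nothing says that separate cultures or transfections lie behind the 3 libraries in each group, so p-values measure the spread between these libraries, which may be technical.

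p53 is a transcription factor that is held at a low level in resting cells and accumulates after DNA damage or oncogenic stress. Mdm2 is a ubiquitin ligase that marks p53 for degradation, and it is itself a p53 target, which closes a negative feedback loop; Mdm4 binds p53 and masks its activation domain. The Cdkn2a locus encodes p16Ink4a and p19Arf, and p19Arf binds Mdm2 and thereby protects p53. p53 is regulated mainly at the protein level, which was not measured here. Its targets arrest the cell cycle, start cell death through the mitochondria, or adjust metabolism and repair.

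Fewer reads of Mdm2, Bbc3, Pmaip1, Ccng1, Gadd45a and Trp53inp1, and more of Bax, were counted in JAG1-overexpressing than in control astrocytes, while Trp53, Mdm4 and Sesn1 did not pass the test. Of the 10 genes, all of which were tested, 7 passed the adjusted p threshold of 0.05 in edgeR's quasi-likelihood test, 1 higher and 6 lower. Pmaip1, among the 6 lower, passed the filter on low counts only through its control libraries, so its call adds no support. Over all 11712 genes tested, 55.1% passed that threshold, 27.4% higher and 27.7% lower. Counts and shares of this kind were read against this broad background, in which more genes than not passed. The median log2 fold change was −0.39 over the 10 genes and 0.0039 over all genes tested. Between libraries of the 2 groups, 1 of the 10 genes was higher and 5 were lower without overlap, against 31.1% and 30.9% of all genes tested, or 62.0% in either direction.

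The libraries held between 14341634 and 20489062 reads counted on genes, and 3 reads, taken as the limit of detection, correspond to 0.148 to 0.206 CPM (counts scaled by TMM to a common library size). Cdkn2a had between 0 and 5 reads in every library. Jag1 rose from 10.3 ± 1.18 CPM in control to 14.2 ± 0.862 CPM in JAG1-overexpressing astrocytes (mean ± SD, n = 3), a log2 fold change of 0.46 (adjusted p = 0.00446, edgeR); whether the vector's own transcript could be counted on the mouse gene was not tested. Of 9 astrocyte markers, Gfap, Aqp4, Slc1a3 and Slc1a2 had at most 3 reads in every library, whereas Aldh1l1, Sox9, Aldoc and Glul were above that limit in all 6, so the labelled cell type was only partly borne out by its markers. The summed level of the astrocyte markers was 209 to 221 CPM in control and 33.2 to 36.3 CPM in JAG1-overexpressing libraries. Most of the sum in control was Sox9, whose mean went from 181 to 18.0 CPM, while Glul went from 26.8 to 15.3 CPM. The summed level of 5 fibroblast and mural cell markers, of which Lum alone was at or under the limit throughout, went from 625 to 633 CPM to 211 to 243 CPM. Microglial markers summed to 0.938 to 1.46 CPM in control and at most 2.20 CPM in JAG1-overexpressing libraries, with Aif1 and P2ry12 at or under the limit in all 6 libraries, and oligodendrocyte lineage markers to 3.45 to 4.56 CPM against 4.06 to 4.80 CPM, with Mbp, Mog and Sox10 at or under it. Neuronal and endothelial markers reached no more than 0.322 CPM in sum in any library. The part of these markers in the results was not tested, and in bulk RNA a change in the share of a cell type and a change in RNA per cell cannot be told apart. The genes of chromosome 15 were lower as a group (median log2 fold change −0.53 over 458 tested) and those of chromosome 19 higher (0.61 over 422); none of the 10 p53 genes lies on either.

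The p53 response element consensus is made of 2 decamers of 10 bases with 0 to 13 bases between them. It was sought in RefSeq promoter windows of build GRCm38.p6, 250 bases before to 50 after each transcript start. In each window the pair of decamers with the fewest mismatches was kept, which need not be the pair that p53 binds. The consensus reads the same on both strands. Windows were used for 8 of the 10 genes. The best matches of Cdkn1a, the p53 target that encodes the cell cycle inhibitor p21, and of Bax, Ccng1 and Bbc3 are given 5′ to 3′ on the gene's strand, with the decamers in capitals; they were chosen for display after the expression values were known.
Cdkn1a, chr17:29090886-29090957 (+): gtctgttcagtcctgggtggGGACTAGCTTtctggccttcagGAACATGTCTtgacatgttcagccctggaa
Bax, chr7:45467070-45467130 (−): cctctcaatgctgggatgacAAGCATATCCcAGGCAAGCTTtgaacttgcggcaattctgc
Ccng1, chr11:40755442-40755501 (−): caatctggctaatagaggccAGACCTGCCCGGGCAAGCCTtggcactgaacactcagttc
Bbc3, chr7:16309466-16309525 (+): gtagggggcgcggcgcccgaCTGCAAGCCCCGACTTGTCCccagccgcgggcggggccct
The Cdkn1a match had 0 mismatches, with 12 bases between its decamers, and began 73 bases upstream of a transcript start. A perfect match was held by 0.0731% of 32851 promoter windows. In the window of another Cdkn1a start, the best match had 5 mismatches. The Bax and Ccng1 matches had 1 mismatch each, at 212 and 195 bases upstream, and 1.09% of the windows held a match at least as good. The Bbc3 match, 97 bases upstream, had 3 mismatches, a level that 45.1% of all windows reached. A match in another Bbc3 window, 105 bases upstream of its start, also had 3 and is not printed. Neither window's end was found near the beginning of a GENCODE transcript of Bbc3. The best windows of Gadd45a and Sesn1 had 2 mismatches, reached by 10.1% of windows, those of Trp53 and Mdm4 had 3, and that of Mdm2 had 4. A match is a description of the letters, not evidence of binding, and a poor match says nothing of elements elsewhere, such as those in introns. Bax and Ccng1, which matched equally well, went opposite ways between the groups.

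Trp53 itself, on chromosome 11, had 24.0, 42.1 and 45.3 CPM in the control libraries 1, 2 and 3 and 28.0, 39.3 and 34.4 CPM in the JAG1-overexpressing libraries. The means were 37.1 ± 11.5 and 33.9 ± 5.68 CPM, and the log2 fold change was −0.14 (standard error 0.20, adjusted p = 0.586), with a 95% interval of −0.58 to 0.30. The groups overlapped, and control library 1 was below all other libraries. Trp53 varied more between libraries of a group than most genes did: its coefficient of variation was 30.9% in control and 16.8% in JAG1-overexpressing libraries, against medians of 5.92% and 5.24% over the 7809 genes of at least 10 CPM, of which 1.19% and 2.11% varied as much. Without control library 1 the log2 fold change was −0.38 (adjusted p = 0.00565) and without control library 3 it was 0.03 (adjusted p = 0.910), so both the call and the direction rested on single libraries. A description of the genes whose log2 CPM ran most nearly parallel to that of Trp53 over the 6 libraries gave Matr3 (Pearson's r = 0.990), Kars (0.985), Capzb (0.982), Exo5 (0.980) and Mbip (0.977). They were chosen for that likeness among genes of at least 10 CPM, so no test applies.

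Mdm2, the ubiquitin ligase that removes p53, was the most abundant of the 10 genes by reads. It had 273, 264 and 248 CPM in control and 218, 234 and 211 CPM in JAG1-overexpressing libraries, and every JAG1-overexpressing library was below every control library. The mean fell from 262 ± 12.9 to 221 ± 11.8 CPM, which is 84.3% of the control level (log2 fold change −0.25, standard error 0.06, adjusted p = 0.00377). The decrease was small but larger than the spread between libraries, and it passed the test with any 1 library left out, at −0.29 to −0.21. Mdm4, the related protein without ligase activity of its own, had 38.6, 35.5 and 33.3 CPM in control and 32.7, 33.7 and 31.7 CPM in JAG1-overexpressing libraries. The groups touched, since the JAG1-overexpressing library 2 exceeded control library 3, and the 95% interval of the log2 fold change, −0.13 (standard error 0.08, adjusted p = 0.167), ran from −0.30 to 0.04.

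Within a library, the balance between inhibitor and p53 was expressed as a log2 ratio of CPM, which depends on how well each 3′ end is read and so has meaning only between libraries. The log2 ratio of Mdm2 to Trp53 was 3.51, 2.65 and 2.45 in control and 2.96, 2.57 and 2.62 in JAG1-overexpressing libraries, a difference in means of −0.15 (exact two-sided permutation test, p = 0.8). The high value of control library 1 came with its low Trp53, and without that library the difference was 0.17. The log2 ratio of Mdm4 to Mdm2 was −2.82, −2.90 and −2.89 in control and −2.74, −2.79 and −2.73 in JAG1-overexpressing libraries. It was higher in each JAG1-overexpressing library than in any control library, by 0.12 on average (exact two-sided permutation test, p = 0.1, the smallest p that 3 libraries against 3 can give).

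**Figure D1:**
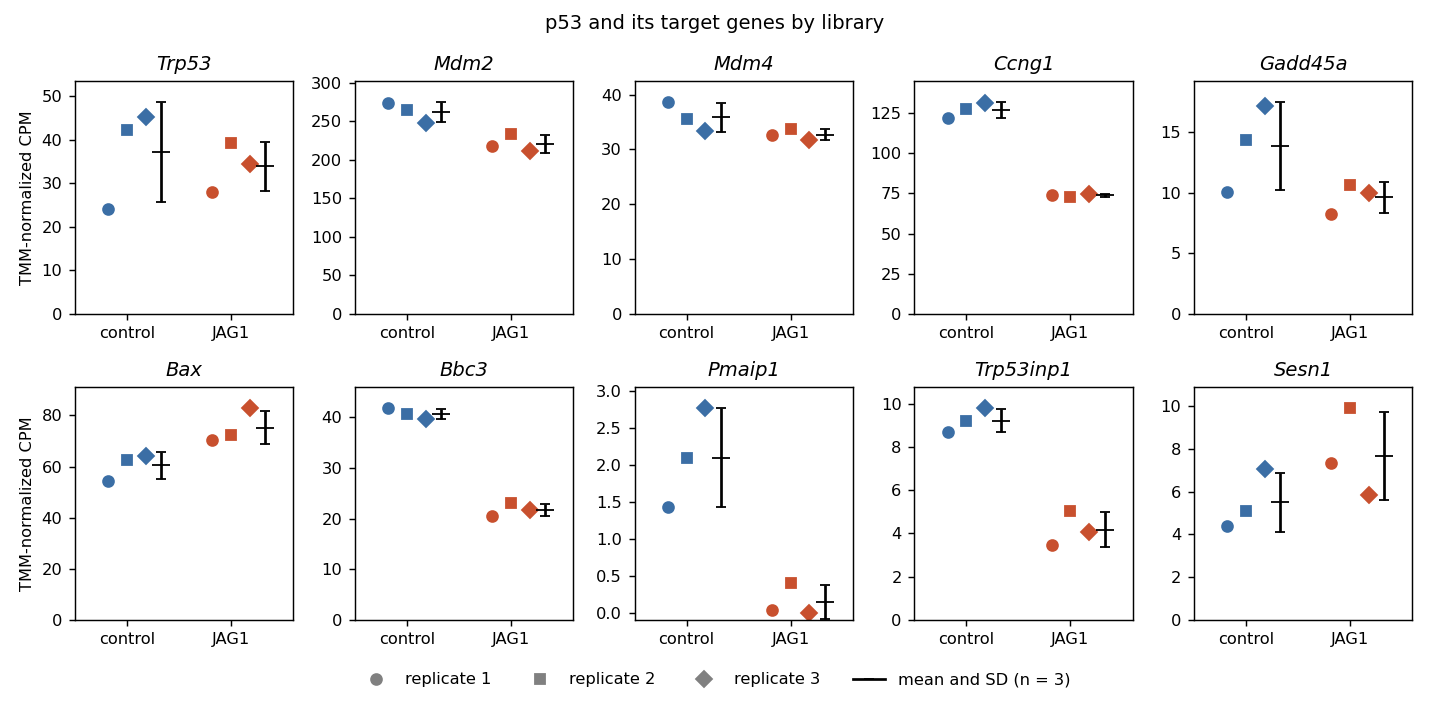
TMM-normalized CPM of each of the 10 genes in the 3 control and 3 JAG1-overexpressing libraries, with a separate vertical axis for each gene; circles, squares and diamonds are libraries 1, 2 and 3, and black marks the mean ± SD. Bbc3, Ccng1 and Trp53inp1 separate clearly between the groups, whereas Trp53, Mdm4, Sesn1 and Gadd45a overlap.

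The 3 cell death genes of the mitochondrial route did not move together. Bax forms pores in the mitochondrial outer membrane, and Bbc3 (PUMA) and Pmaip1 (NOXA) are BH3-only proteins that neutralize its antagonists. Bax, on chromosome 7, had 54.5, 62.7 and 64.1 CPM in control and 70.5, 72.5 and 82.8 CPM in JAG1-overexpressing libraries. All JAG1-overexpressing libraries were above all control libraries, with means of 60.5 ± 5.19 and 75.3 ± 6.60 CPM (124% of control, log2 fold change 0.32, standard error 0.08, adjusted p = 0.00743). It was the only one of the 10 genes called higher with all 6 libraries and the filter on low counts. The GENCODE annotation places a gene model, Gm45808, on the same strand over exons of Bax, though not over its last exon, where 3′ reads fall.

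Bbc3, on chromosome 7, had 41.8, 40.6 and 39.7 CPM in control and 20.5, 23.0 and 21.7 CPM in JAG1-overexpressing libraries. The libraries of each group lay close together and far from the other group, and the mean fell from 40.7 ± 1.06 to 21.7 ± 1.25 CPM, 53.3% of control (log2 fold change −0.91, standard error 0.08, adjusted p = 1.63e-06). Pmaip1, on chromosome 18, was the least abundant of the 10 genes, and in JAG1-overexpressing libraries it was close to the limit of detection. It had 29, 39 and 53 reads in control and 1, 6 and 0 reads in JAG1-overexpressing libraries, or 2.10 ± 0.670 and 0.154 ± 0.225 CPM. Summed over libraries, 121 reads stood against 7, a ratio of control to JAG1-overexpressing CPM of 15.2 with an exact 95% interval of 7.17 to 38.7 that covers counting error only. The fitted log2 fold change was −3.86 (standard error 0.62, adjusted p = 0.000292, edgeR). Pmaip1 passed the filter on low counts only through its control libraries. It was thus tested only because its control values were high, and the p-value is no support for a decrease. Of the 7 reads, 6 came from JAG1-overexpressing library 2. The log2 fold change was −5.95 without that library and −3.31 at the other end of the range with 1 library left out.

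The genes of growth arrest, damage response and stress were lower or did not pass the test. Ccng1 encodes cyclin G1, which recruits a phosphatase to Mdm2, and was the second most abundant of the 10 genes in control. It had 122, 128 and 132 CPM in control and 73.9, 72.7 and 74.7 CPM in JAG1-overexpressing libraries. No library of either group came near the other group, and the mean fell from 127 ± 4.90 to 73.7 ± 1.03 CPM, 58.0% of control (log2 fold change −0.78, standard error 0.06, adjusted p = 4.46e-07). Trp53inp1, a stress protein that acts with p53 in cell death and autophagy, had 8.69, 9.18 and 9.78 CPM in control and 3.44, 5.02 and 4.07 CPM in JAG1-overexpressing libraries. It fell to 44.9% of control, from 9.22 ± 0.547 to 4.18 ± 0.797 CPM, again without overlap (log2 fold change −1.16, standard error 0.15, adjusted p = 5.93e-05).

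Gadd45a, a small stress protein that binds kinases and cell cycle regulators, had 10.0, 14.4 and 17.2 CPM in control and 8.22, 10.7 and 9.96 CPM in JAG1-overexpressing libraries. Control library 1 lay within the JAG1-overexpressing range, so the groups overlapped although the test passed (13.9 ± 3.62 against 9.62 ± 1.26 CPM, log2 fold change −0.53, standard error 0.18, adjusted p = 0.0265). The call was lost without control library 2 (adjusted p = 0.0754), control library 3 (0.0827), JAG1-overexpressing library 1 (0.114) or JAG1-overexpressing library 3 (0.0620), while without control library 1 the log2 fold change was −0.73 (adjusted p = 0.000112). On the opposite strand, E230016M11Rik overlaps exons of Gadd45a other than the last, and the strand setting of the counting was not stated. Sesn1, a stress protein that restrains mTORC1, had 4.39, 5.10 and 7.06 CPM in control and 7.33, 9.91 and 5.83 CPM in JAG1-overexpressing libraries. The groups overlapped through library 3 of each, and the log2 fold change, 0.47 (standard error 0.22), did not pass with all 6 libraries (adjusted p = 0.0843) but passed without control library 3 (0.68, adjusted p = 0.0151), without JAG1-overexpressing library 3 (0.63, adjusted p = 0.0376) and with no filter on low counts (adjusted p = 0.0241).

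**Figure D2:**
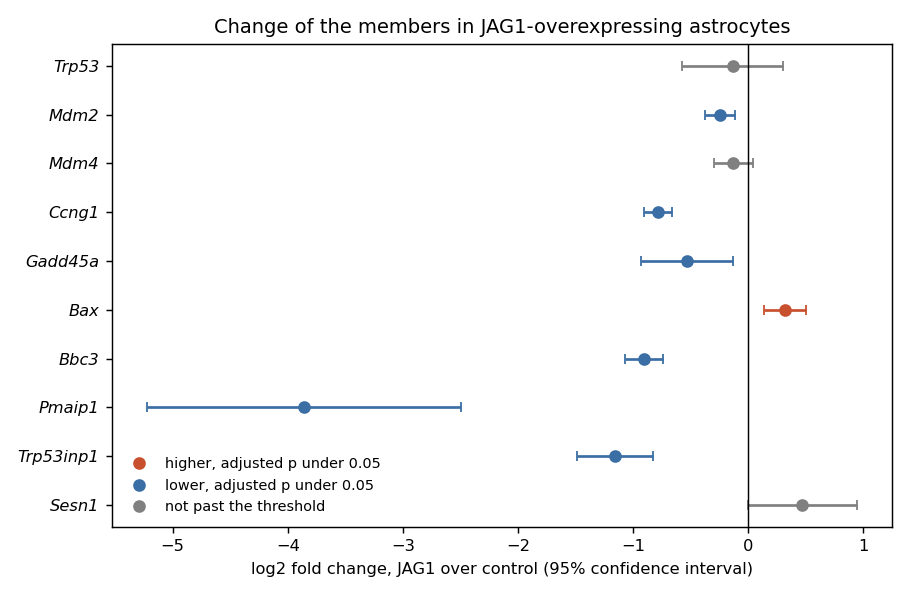
Log2 fold change of each of the 10 genes, JAG1-overexpressing against control, with its 95% interval from edgeR's quasi-likelihood fit (n = 3 libraries per group). Pmaip1 has the lowest value and the widest interval, from −5.22 to −2.49, and Bax is the only gene whose interval lies wholly above 0.

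When each library was left out in turn, the values of Mdm2, Bax, Bbc3, Ccng1 and Trp53inp1 moved little and every call was kept. Bbc3 ranged from −0.95 to −0.86, Ccng1 from −0.81 to −0.76, Trp53inp1 from −1.30 to −1.02 and Bax from 0.24 to 0.36. The genes whose calls changed, Trp53, Gadd45a and Sesn1, had control coefficients of variation of 30.9%, 26.1% and 25.0%, while Pmaip1, with 31.9%, kept its call throughout. In the control group, 7 of the 10 genes had their lowest CPM in library 1 and 7 their highest in library 3, where 38.7% and 37.2% of all genes tested had theirs. In the JAG1-overexpressing group, 8 of the 10 were highest in library 2, against 34.6% of all genes. These are descriptions, since the genes of a library share its RNA and its depth, and library 2 of the JAG1-overexpressing group held the fewest reads of all 6.

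**Figure D3:**
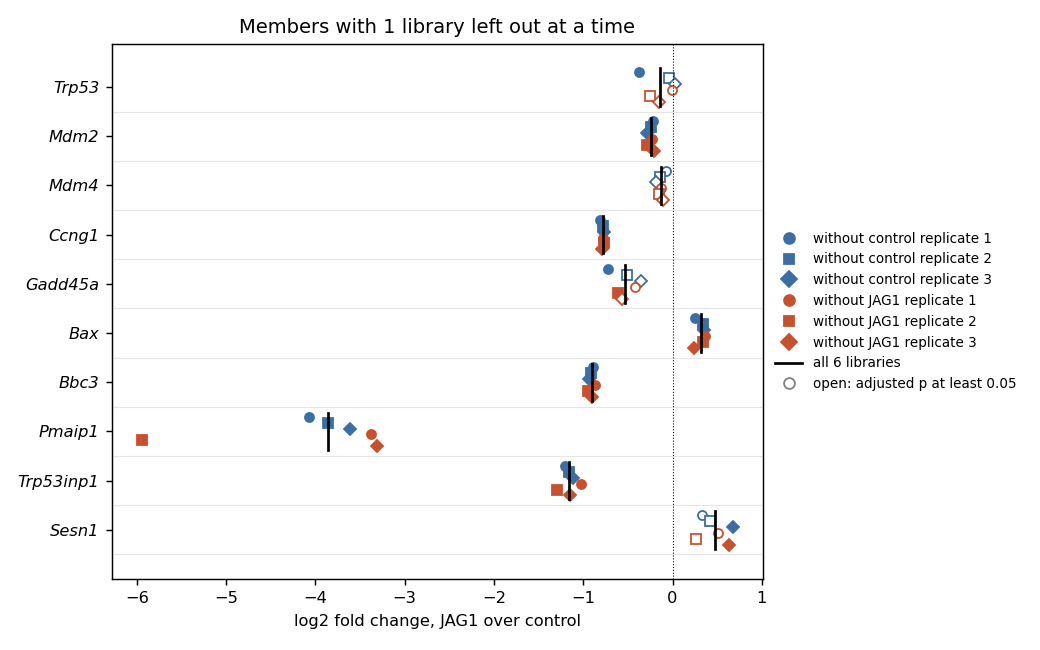
Log2 fold change of the 10 genes with each of the 6 libraries left out in turn; filled points passed an adjusted p of 0.05 and open points did not, and the black bar is the value from all 6 libraries. The points of Trp53 lie on both sides of 0, from −0.38 to 0.03, while those of Ccng1 and Bbc3 stay close to their bars.

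The levels were ordered by mean CPM, which for 3′ reads was not divided by transcript length and also depends on how well each 3′ end is primed and mapped. In control the order was Mdm2, Ccng1, Bax, Bbc3, Trp53, Mdm4, Gadd45a, Trp53inp1, Sesn1 and Pmaip1. Of the neighbours, Trp53 overlapped in its libraries with Bbc3 above it and Mdm4 below it and was not told apart from either, while Mdm2, Ccng1 and Bax were each separate. In JAG1-overexpressing astrocytes Bbc3 stood below Trp53 and Mdm4, and Bax and Ccng1 overlapped, at 75.3 and 73.7 CPM, as did Gadd45a and Sesn1.

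The close relatives of these genes gave values of their own in the same cells. Of 6 paralogs, all tested, 5 were lower and none higher, where 27.7% of all genes tested were lower. Only 4 were lower without control library 2 or without JAG1-overexpressing library 3. One paralog, Sesn2, was also counted among the metabolic targets below. Sesn2 (2.20 to 0.787 CPM, log2 fold change −1.48, adjusted p = 0.00125) and Sesn3 (5.04 to 1.12 CPM, −2.20, adjusted p = 7.62e-05) fell, in contrast to the value of 0.47 for Sesn1, which did not pass; the difference between paralogs was not tested. Gadd45b (log2 fold change −0.55, adjusted p = 0.000208), Gadd45g (−0.26, adjusted p = 0.0137) and Ccng2 (−0.73, adjusted p = 0.00376) fell as Gadd45a and Ccng1 did. Trp53inp2 had 5.81 CPM in control and 6.70 CPM in JAG1-overexpressing astrocytes (log2 fold change 0.21, adjusted p = 0.205).

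Upstream of p53, a list of 29 genes that regulate p53 or belong to its family was measured, of which 25 were tested. Of these, 5 were higher and 5 lower, or 40.0% called against 55.1% of all genes tested. The median change was 0.0027 on the log2 scale. Ppm1d, the phosphatase WIP1 that switches p53 signaling off and is a p53 target itself, rose from 34.1 to 51.3 CPM (log2 fold change 0.59, adjusted p = 1.94e-05), and Hipk2, a kinase that phosphorylates p53 for cell death, fell from 34.1 to 12.4 CPM (log2 fold change −1.45, adjusted p = 1.2e-06). The negative regulators Mdm2 and Ppm1d thus changed in opposite directions.

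Downstream, 67 further direct p53 targets were found, and 60 were tested. Of these, 15 were higher (25.0%) and 24 lower (40.0%), or 65.0% called. Over all genes tested, 27.4% were higher and 27.7% lower, or 55.1% called. The median change of the direct targets was −0.04 on the log2 scale. Cdkn1a, the canonical arrest target, had 35.7, 37.9 and 35.9 CPM in control and 50.8, 48.4 and 54.2 CPM in JAG1-overexpressing libraries. Every JAG1-overexpressing library was above every control library, and the mean rose to 140% of control (36.5 ± 1.22 to 51.1 ± 2.92 CPM, log2 fold change 0.49, standard error 0.07, adjusted p = 0.000123), and so moved with Bax and against Ccng1 and Bbc3. Among the 8 arrest targets tested, 3 were higher and 3 lower, with Plk3, a stress kinase, up from 9.41 to 16.4 CPM (log2 fold change 0.80) and Zmat3, an RNA-binding protein, down from 118 to 64.2 CPM (−0.87). The cell death targets leave out Bax, which was called higher, and Bbc3 and Pmaip1, which were called lower. Of 12 such targets tested, 6 were lower and none higher. Without control library 2 or without JAG1-overexpressing library 1 only 4 were lower, and without control library 3 there was 1 that was higher. Perp, a membrane protein of desmosomes and cell death, fell most among them, from 365 ± 1.95 to 30.2 ± 2.26 CPM (log2 fold change −3.60, adjusted p = 2.27e-11).

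Of 6 repair targets, 4 were lower and none higher (median −0.64 on the log2 scale), where 27.7% of all genes tested were lower. Only 3 were lower without control library 2, JAG1-overexpressing library 2 or JAG1-overexpressing library 3. The excision repair nuclease Ercc5 fell from 42.4 to 19.2 CPM (−1.15). The 19 metabolic and autophagy targets tested were split, 8 higher and 7 lower (78.9% called, against 55.1% of all genes tested). Pank1, which makes coenzyme A and lies on chromosome 19, rose from 9.20 to 31.9 CPM (log2 fold change 1.79), and Ddit4, an inhibitor of mTORC1, fell from 106 to 61.5 CPM (−0.78). Of 15 secreted and other targets tested, 4 were higher and 4 lower (53.3% called, near the share of all genes). Among those with a mean of at least 10 CPM, Hbegf, a growth factor for the EGF receptor, rose most, from 53.4 to 113 CPM (1.08), and Igfbp3, which sequesters insulin-like growth factors, fell most, from 33.7 to 2.88 CPM (−3.55). Without the genes of chromosomes 15 and 19, the direct targets counted 12 higher and 21 lower of 54 tested. All genes then counted 2866 higher and 2871 lower of 10832.

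**Figure D4:**
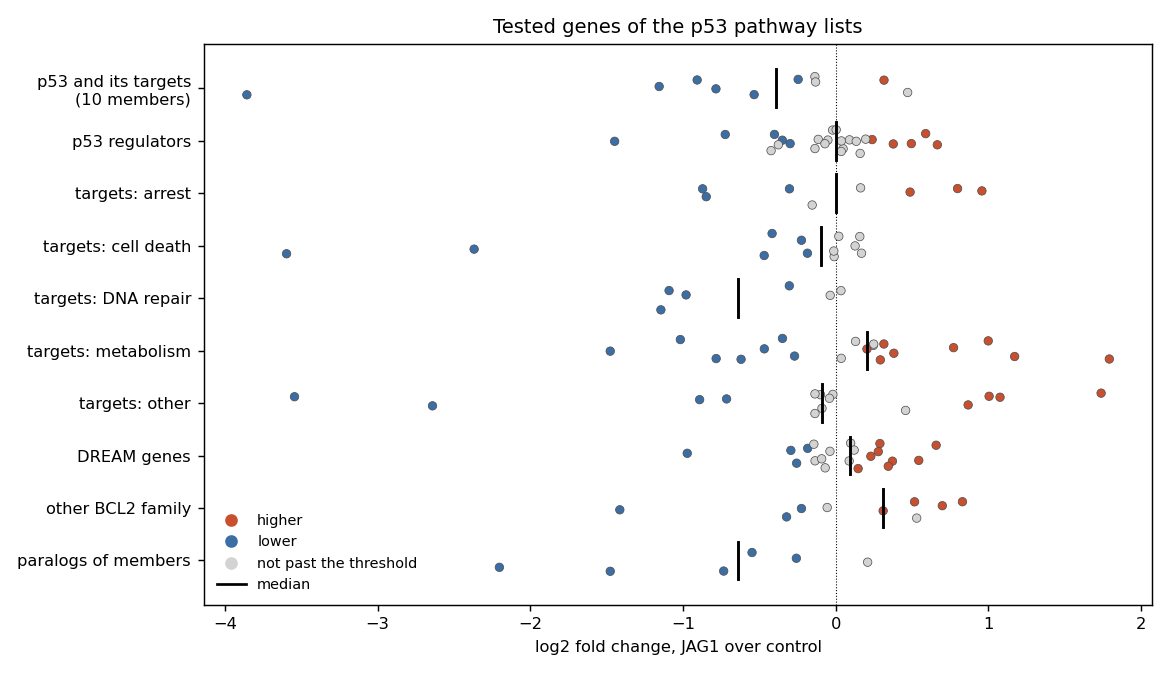
Log2 fold change of each tested gene, JAG1-overexpressing against control, by list: the 10 genes, their paralogs, p53 regulators, further direct targets by role, BCL2 family genes and genes lowered through the DREAM complex. The points of most lists lie on both sides of 0, while with all 6 libraries none of the cell death or repair targets passed the test above it. The cell death list leaves out Bax, which was called higher, and Bbc3 and Pmaip1, which were called lower.

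p53 also lowers mitotic and replication genes indirectly, through p21 and the repressor complex DREAM. All 20 genes of that list were tested, and 8 were higher and 4 lower (60.0% called, against 55.1% of all genes tested, median log2 fold change 0.09). With at least a 1.5-fold change, 1 was higher and 1 lower, Aurkb, a mitotic kinase, at 18.0 to 28.3 CPM (log2 fold change 0.66) and Bub1, a spindle checkpoint kinase, at 38.7 to 19.7 CPM (−0.97). The split moved with the scaling, from 10 higher and 4 lower with library size alone to 7 and 6 with upper-quartile normalization. Of 15 other BCL2 family genes, 9 were tested, and 4 were higher and 3 lower (77.8% called, against 55.1% of all genes tested). Only 1 was lower without control library 2, and 2 without any 1 of the JAG1-overexpressing libraries. Bid, among the 3 lower, was also counted as a cell death target above. The BH3-only gene Bcl2l11 (BIM) rose from 8.12 to 14.4 CPM (log2 fold change 0.83, adjusted p = 0.000221), opposite to Bbc3 and Pmaip1, and Bok, a Bax relative, fell from 40.5 to 15.1 CPM (−1.41, adjusted p = 1.19e-06).

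A limit of 1.5-fold separates the large from the small changes among the 10 genes. With it, 4 of the 10 were called, all lower: Bbc3, Pmaip1, Ccng1 and Trp53inp1. Of these, Pmaip1 was in the test only through its control libraries. Of all genes tested, 26.5% met that limit, 14.6% on the lower side.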

How the data were processed

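The authors sequenced QuantSeq 3′ mRNA libraries of 6 samples and deposited, for each library, raw read counts per gene and normalized values on a log2 scale. The submitters' processing notes name Bowtie2, bedtools and edgeR and the builds GRCm38 and mm10; settings, strand use and normalization are not given in the sources used here. A gene's 3′ reads do not rise with transcript length. Depth was 14341634 to 20489062 counts, and the 3-read limit covers counting error only.

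Counts were fitted in R 4.3.3 with edgeR 4.0.16, where filterByExpr at a count minimum of 10 kept 11712 of 23282 rows. TMM scaling, the quasi-likelihood test of 3 control against 3 JAG1-overexpressing libraries without covariates, and Benjamini-Hochberg adjustment over all rows tested, at 0.05, followed. Symbols were matched to RefSeq (22059 by symbol, 1071 by synonym, 152 unmatched). The deposited log2 values served only as an alternative for the 2 ratios, which were compared by exact two-sided permutation. Other alternatives were DESeq2 1.42.0, library size alone, upper-quartile scaling, limma-voom (limma 3.58.1), no filter, a mean of 10 counts, a 1.5-fold limit, a replicate block, leaving out chromosomes 15 and 19, and leaving out each library. The fit was also run on simulated counts in which few genes changed. In these data 55.1% of genes passed, so that run does not measure the false calls here.

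The 10 genes and the gene lists were chosen with earlier results of these data known, the lists from general knowledge. Named beside them were Jag1, Cdkn2a, Cdkn1a, all paralogs, from each list the called gene of at least 10 CPM that rose most and that fell most, and the 5 genes most correlated with Trp53. Promoter sequences are RefSeq's, exon overlaps and transcript sequences GENCODE M21's.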

Additional observations from a re-analysis of the deposited data

How the results depend on the processing

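Under DESeq2, limma-voom, library size alone, upper-quartile scaling and a mean filter of 10 counts, none of the 10 genes changed its direction or its side of the threshold, and without a filter only Sesn1 did. A limit of 1.5-fold lowered the counts of called genes to 4 of the 10 (0 higher, 4 lower), 25 direct targets (10 higher, 15 lower), 4 regulators (2 and 2), 2 DREAM genes (1 and 1), 3 BCL2 family genes (2 and 1) and 3106 of all genes (1395 and 1711), by construction. With 1 library left out, the log2 fold change of Trp53 ran from −0.38 to 0.028, turning at control library 3, and the difference in the log2 ratio of Mdm2 to Trp53 from −0.36 to 0.17, turning at control library 1; the cause was not tested. With the replicate number as a block, 7 of the 10 genes (1 higher, 6 lower) and 6711 of all genes were called, and no call among the 10 changed. Same-numbered libraries of the groups deviated together with correlations of 0.148, 0.061 and 0.119, and each library correlated best with its own number, a hint from the data and not from the design, since the labels do not say what a number shares. Depth limits Pmaip1 most, with 7 reads in the JAG1-overexpressing group.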
